A study of Mus musculus with 34 samples.

Results

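AMP-activated protein kinase (AMPK) and its best known regulators were followed in mouse liver through 10 genes. They were picked by name: the catalytic subunit genes Prkaa1 and Prkaa2, the scaffold subunit genes Prkab1 and Prkab2, the nucleotide-binding subunit genes Prkag1 and Prkag2, the upstream kinase genes Stk11 and Camkk2, and the regulators Ppargc1a and Sirt1. The choice used no threshold on a measured value. All 10 had a row among the 37583 genes of the deposited files, and all 10 passed the filter on low values, as did 16813 genes in all.

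AMPK is an energy sensor built from a catalytic alpha, a scaffolding beta and a regulatory gamma subunit, each encoded by paralogous genes. AMP or ADP bound to the gamma subunit keeps the alpha subunit phosphorylated by LKB1, the product of Stk11, while the kinase encoded by Camkk2 phosphorylates alpha in answer to calcium. Active AMPK phosphorylates enzymes of fatty acid and cholesterol synthesis and restrains them, and in liver it is also known for its links to the coactivator PGC-1alpha (Ppargc1a) and the NAD-dependent deacetylase SIRT1. AMPK activity depends on phosphorylation and nucleotide binding, neither of which was measured here.

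The livers came from F1 (C57Bl6/CBA) mice aged 45 days. The knockout genotype (KO, Setd8lox/lox-Alb-Cre) deletes a floxed exon of Setd8 (Kmt5a), the gene of the H4K20 monomethyltransferase, and was set against wild type (WT). Alb-Cre acts in hepatocytes, and whether other liver cells keep the gene was not measured here. Polyadenylated RNA was sequenced in 3 KO and 3 WT libraries from untreated mice. Newly made RNA was sequenced in 1 KO and 1 WT library by each of 2 methods: ethynyl uridine (EU) labelling in the animal, 30 minutes after an intraperitoneal dose of 25 mg/kg, and a nuclear run-on of 3 minutes with bromo-UTP (Br). The other 24 of the 34 samples are chromatin and input libraries and were not analysed here.

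The mRNA values are reads per gene, scaled between libraries by the authors, and they summed to between 18069344 and 25820906 per library. The EU libraries held 5583983 reads in KO and 10833287 in WT, and the Br libraries 2317840 in KO and 3156055 in WT. WT replicate 3 stood apart from the other mRNA libraries: it had values above 0 for 20077 genes, against 24497 to 26247 in the others, and lay at 121.5 on the first principal component, against -46.23 to -6.109. The labels do not say whether replicates are separate animals, so each p-value measures the spread between these libraries only. Setd8 itself had 1199, 1040 and 1075 scaled reads in the libraries labelled KO, against 593, 615 and 1076 in WT (log2 KO over WT 0.59, limma adjusted p = 0.244). Leaving out WT replicate 3 brought it to 0.87, with an adjusted p of 0.0206. These values cover the whole gene and not the deleted exon alone, so they do not check the deletion, and KO and WT are used here as the labels give them.

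None of the 10 genes passed the test in mRNA. At an adjusted p under 0.05, limma called 0 of 10 members, beside 2.71% of all genes tested (455 genes). At an unadjusted limma p under 0.05 the count was again 0 of 10, beside 20.0% of all genes, and in the other tests run (edgeR and DESeq2 on re-estimated reads) no member was called either. In 1 member, Sirt1, the KO and WT libraries did not overlap, against 26.0% of all genes. The estimates leaned to lower values in KO: 8 members lay below 0 and 2 above, with a median log2 KO over WT of -0.45. Of all genes, 49.8% lay below 0 and their median was 0.0023. Among the 8, Prkab1 lay at only -0.0007, and both Prkab1 and Ppargc1a took either sign in alternative fits. The 95% intervals of several members reach past a 2-fold decrease, so these libraries leave such sizes within their error. The tissue was sequenced in bulk, where fewer cells of a type and less RNA per cell cannot be told apart.

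**Figure D1:**
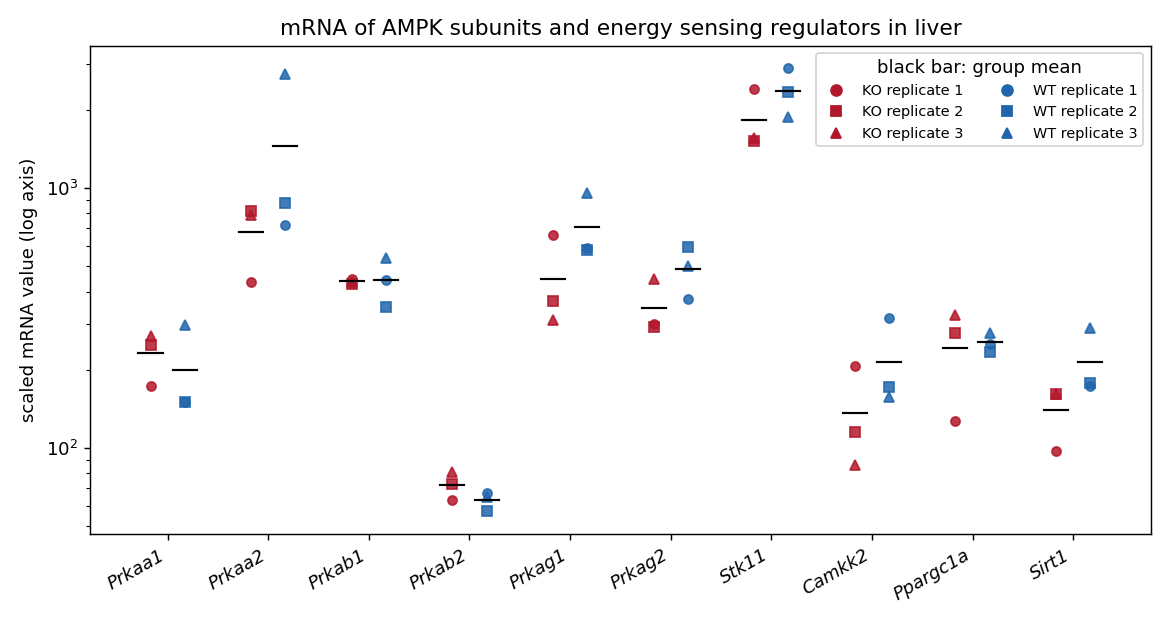
Scaled mRNA reads of the 10 genes on a log axis, with each point a library, KO left of WT, and bars for the group means. The groups overlap for every gene except Sirt1, and WT replicate 3 is the highest library for 5 of the genes.

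The catalytic subunit genes had estimates of opposite sign, neither past the test. Prkaa2 (chr4:105029874-105109890, minus strand, GRCm38), which encodes alpha2, had 436, 817 and 785 scaled reads in KO, against 720, 875 and 2749 in WT. The lowest library was a KO and the highest WT replicate 3, and the middle values overlapped. The means were 679 ± 211 in KO and 1448 ± 1129 in WT (SD, n = 3 each). The log2 estimate was -0.88 (SE 0.49, 95% interval -2.01 to 0.26, limma adjusted p = 0.375). WT replicate 3 decides much of that size, since the log2 difference without it was -0.28. Prkaa1 (chr15:5143861-5181899, plus strand), which encodes alpha1, had 173, 250 and 270 scaled reads in KO, against 150, 150 and 297 in WT. The highest library was again WT replicate 3, above the KO libraries. The means were 231 ± 51.2 in KO and 199 ± 84.9 in WT, a log2 difference of 0.27 (SE 0.33, 95% interval -0.49 to 1.02, adjusted p = 0.714), and 0.59 without WT replicate 3.

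A ratio of the catalytic genes within a library does not depend on how libraries are scaled to each other. Per kilobase of exon, Prkaa2 made up 59.6%, 65.6% and 62.9% of the summed Prkaa1 and Prkaa2 level in KO, against 73.7%, 77.3% and 84.4% in WT. Every KO library lay below every WT library in this share. The mean share was 62.7% ± 3.04 in KO and 78.5% ± 5.43 in WT (SD, n = 3 each), or 75.5% in WT without replicate 3. Comparing the ratio was chosen after its values were seen, so it is given without a test. On the log2 scale the ratio of Prkaa2 to Prkaa1 mRNA differed by -1.14 between KO and WT, and by -1.35 to -0.88 when any 1 library was left out. The nascent libraries gave ratios of the same direction. By EU there were 4.89 Prkaa2 reads per Prkaa1 read in KO and 9.02 in WT (log2 difference -0.89, 95% counting interval -1.06 to -0.70). By Br there were 1.32 in KO and 2.95 in WT (-1.17, interval -1.80 to -0.53). The other pairs did not keep 1 direction in nascent RNA. For Prkab1 to Prkab2 the log2 difference was -0.40 by EU (interval -0.95 to 0.17) and 0.37 by Br (interval -0.50 to 1.28). For Prkag1 to Prkag2, EU gave a ratio of 0 in KO and 0.197 in WT. By Br that pair differed by 0.38 (interval -0.67 to 1.38). Each nascent ratio rests on 1 library per genotype, and its interval covers counting error only. The EU ratios of single genes spread widely, with quartiles of -0.90 and 0.99. How often other gene pairs differ by as much, in nascent RNA or mRNA, was not worked out. Macrophage markers were higher in KO mRNA: the 10 listed summed to 14701, 18366 and 8921 scaled reads in KO, against 6672, 6086 and 6412 in WT. Their part in the subunit balance was not tested.

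**Figure D2:**
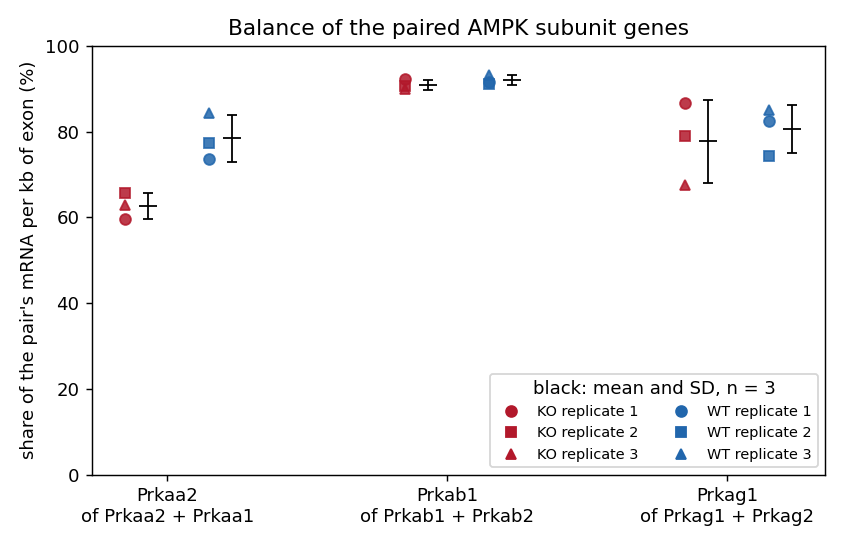
Share of the first-named gene, in percent, in the summed per-kilobase mRNA level of each subunit pair, with each point a library, KO left of WT, and bars for means. The alpha pair shows no overlap between KO and WT, and the beta and gamma pairs overlap.

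The promoters of the catalytic pair are shown because the balance of that pair differed in each kind of RNA, and those of Prkag1, which had 0 EU reads in KO, and Ppargc1a, whose window holds about as many CpG pairs as the median promoter, for contrast. Each is the 250 bases before the RefSeq start (RefSeq, GRCm38.p6), 5′ to 3′ on the strand of the gene. Capitals mark the GC box, GGGCGG or its reverse complement CCGCCC, a sequence that Sp1 family factors bind, with overlapping matches counted each. They lie at chr15:5143611-5143860 (plus, Prkaa1), chr4:105109899-105110148 (minus, Prkaa2), chr15:98831509-98831758 (minus, Prkag1) and chr5:51567726-51567975 (minus, Ppargc1a).
Prkaa2: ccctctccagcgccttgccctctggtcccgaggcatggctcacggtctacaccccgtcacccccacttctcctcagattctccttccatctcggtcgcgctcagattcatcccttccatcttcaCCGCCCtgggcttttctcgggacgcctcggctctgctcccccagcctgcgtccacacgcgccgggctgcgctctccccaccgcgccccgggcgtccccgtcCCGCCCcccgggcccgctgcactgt
Prkaa1: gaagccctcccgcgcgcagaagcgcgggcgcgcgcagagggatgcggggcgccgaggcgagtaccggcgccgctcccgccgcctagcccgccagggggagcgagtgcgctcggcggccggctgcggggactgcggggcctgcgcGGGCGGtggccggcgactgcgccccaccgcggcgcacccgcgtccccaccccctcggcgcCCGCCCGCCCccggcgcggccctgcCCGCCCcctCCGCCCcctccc
Prkag1: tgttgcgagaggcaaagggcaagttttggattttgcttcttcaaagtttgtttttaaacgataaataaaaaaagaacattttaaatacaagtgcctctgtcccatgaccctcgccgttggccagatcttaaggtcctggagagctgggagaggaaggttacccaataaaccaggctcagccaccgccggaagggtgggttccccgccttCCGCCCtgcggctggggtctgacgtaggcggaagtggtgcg
Ppargc1a: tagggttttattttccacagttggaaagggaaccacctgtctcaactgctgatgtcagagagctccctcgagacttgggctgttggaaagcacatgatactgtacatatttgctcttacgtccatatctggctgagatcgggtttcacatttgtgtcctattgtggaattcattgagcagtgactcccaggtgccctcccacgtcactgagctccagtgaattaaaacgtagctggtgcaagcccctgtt

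The window of Prkaa1 is 85.2% G and C with 45 CpG pairs and 5 GC boxes. That of Prkaa2 is 70% G and C with 24 CpG pairs and 2 GC boxes. The Prkag1 window is at 51.6%, with 12 CpG pairs and 1 GC box, and that of Ppargc1a at 48%, with 5 CpG pairs and no match to the GC box. Among all 32851 RefSeq promoter windows of this length the median was 52.4% with 6 CpG pairs, and 32.7% held at least 1 GC box on either strand. A RefSeq promoter was found for 10 of 10 members. The window of Sirt1 held 2 matches to the E-box CACGTG, which 6.02% of all windows hold, and 6 GC boxes. A match or its lack is a description of these letters only.

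The scaffold genes had estimates near 0. Prkab1 (chr5:116013586-116024508, minus strand), the gene of beta1 and the more abundant of the pair, had 448, 429 and 436 scaled reads in KO, against 444, 350 and 540 in WT. The KO libraries lay close together inside the WT range. Their means were 438 ± 9.61 in KO and 445 ± 95.0 in WT. The log2 difference was -0.0007 (95% interval -0.48 to 0.48, limma adjusted p = 0.999). Prkab2 (chr3:97658193-97673812, plus strand), the gene of beta2, had 63, 73 and 81 scaled reads in KO, against 67, 57 and 65 in WT. The values overlapped, and the log2 difference was 0.19 (SE 0.27, 95% interval -0.44 to 0.82, adjusted p = 0.755). Prkab1 made up 91.0% ± 1.15 of the per-kilobase level of the pair in KO and 92.0% ± 1.12 in WT.

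The nucleotide-binding subunit genes both had lower means in KO, within the spread of the libraries. Prkag1 (chr15:98812797-98831521, minus strand), the gene of gamma1, had 659, 368 and 312 scaled reads in KO, against 588, 576 and 960 in WT. KO replicates 2 and 3 lay below every WT library, while KO replicate 1 lay above WT replicates 1 and 2. The means were 446 ± 186 in KO and 708 ± 218 in WT, with a log2 difference of -0.70 (SE 0.33, 95% interval -1.45 to 0.05, limma adjusted p = 0.283). Leaving out KO replicate 1 gave -1.02 and leaving out WT replicate 3 gave -0.46. Prkag2 (chr5:24862744-25100642, minus strand), the gene of gamma2, had 299, 292 and 446 scaled reads in KO, against 374, 595 and 501 in WT. KO replicate 3 lay inside the WT range and the other KO libraries below it (log2 difference -0.50, SE 0.26, 95% interval -1.09 to 0.08, adjusted p = 0.321). Prkag1 was 77.8% ± 9.66 of the pair per kilobase in KO and 80.6% ± 5.65 in WT, with overlapping libraries. The muscle gamma3 gene Prkag3, which is not among the 10, had 3, 7 and 12 scaled reads in KO, against 13, 7 and 28 in WT. In nascent RNA, with 1 library per genotype, Prkag3 had 162 Br reads in KO and 437 in WT, and 1 EU read in KO and 48 in WT.

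Both upstream kinase genes had lower means in KO without passing the test. Stk11 (chr10:80115803-80130682, plus strand), the gene of LKB1, had 2401, 1511 and 1563 scaled reads in KO, against 2895, 2340 and 1875 in WT. KO replicate 1 lay above 2 of the WT libraries, and the log2 difference was -0.39 (SE 0.25, 95% interval -0.97 to 0.19, limma adjusted p = 0.446). Camkk2 (chr5:122731170-122779409, minus strand), the gene of the calcium-dependent AMPK kinase, had 207, 115 and 86 scaled reads in KO, against 316, 172 and 157 in WT. Its log2 difference was -0.68 (SE 0.40, 95% interval -1.59 to 0.23, adjusted p = 0.388), with KO replicate 1 again inside the WT range. KO replicate 1 was the highest KO library for Stk11, Camkk2, Prkag1 and Prkab1 and the lowest for 5 other members, among them both catalytic genes, Ppargc1a and Sirt1.

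The regulators differed in how far their libraries separated. Sirt1 (chr10:63319005-63381704, minus strand), which encodes the deacetylase that links NAD levels to PGC-1alpha, had 97, 161 and 161 scaled reads in KO, against 173, 178 and 290 in WT. Every KO library lay below every WT library, with 161 and 173 the nearest values. The means were 140 ± 37.0 in KO and 214 ± 66.2 in WT, a log2 difference of -0.61 (SE 0.31, 95% interval -1.32 to 0.11, limma adjusted p = 0.326). Ppargc1a (chr5:51454250-51567726, minus strand), the gene of the coactivator that drives mitochondrial and fasting genes, had 127, 277 and 324 scaled reads in KO, against 252, 235 and 278 in WT. The KO libraries spanned the WT range on both sides, and the log2 difference of -0.18 (SE 0.35, 95% interval -0.97 to 0.62, adjusted p = 0.834) took either sign when a library was left out: -0.44 without KO replicate 3 and 0.24 without KO replicate 1.

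Set per kilobase of exon, the levels of the 10 genes ran, by WT mean, from Stk11 down to Camkk2 and Prkab2. Stk11 averaged 398.5 ± 109 scaled reads per kilobase in KO and 517.5 ± 112 in WT, Prkag1 205.2 ± 85.7 in KO and 325.5 ± 100.4 in WT, and Prkaa2 85.3 ± 26.5 in KO and 181.7 ± 142 in WT. Prkab1 followed with 142.7 ± 3.13 in KO and 145 ± 31.0 in WT. Prkaa2 stood above Prkab1 only through WT replicate 3: without it the WT means were 100.1 for Prkaa2 and 129.5 for Prkab1, and in KO every library had Prkab1 above Prkaa2. The most abundant gene for each subunit was thus Prkaa2, Prkab1 and Prkag1 in both genotypes. Prkag2 averaged 53.3 ± 13.4 in KO and 75.6 ± 17.1 in WT, Prkaa1 49.6 ± 11.0 in KO and 42.8 ± 18.2 in WT, and Sirt1 26.2 ± 6.93 in KO and 40.1 ± 12.4 in WT. Ppargc1a averaged 36.8 ± 15.6 in KO and 38.7 ± 3.28 in WT. The lowest were Camkk2, with 12.5 ± 5.79 in KO and 19.7 ± 8.04 in WT, and Prkab2, with 14.2 ± 1.77 in KO and 12.4 ± 1.04 in WT. Along the order of the WT means, the libraries of neighbouring genes were fully apart in 6 of 9 neighbouring pairs in KO and in 3 of 9 in WT, and 1 of the KO pairs, Prkaa2 and Prkab1, was apart in the reverse of the WT order. These counts compare ranges across libraries and not genes within a library. Within every WT library Prkag1 lay above Prkaa2 and Prkag2 above Prkaa1, though their ranges met. The other WT pairs not apart changed order between libraries. In KO, Ppargc1a lay above Sirt1 in every library, and the other pairs not apart changed order. Exon lengths are GENCODE unions on GRCm38, and 8 of the 10 genes overlap another annotated gene, while the strand used in counting is not given in the sources used here.

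Newly made RNA had 1 library per genotype and method, so it has no replicate check and no test, and its intervals cover counting error only. Ratios were centred on the median gene, which lay at log2 -0.97 for EU and -0.45 for Br before centring. By EU, 4 of 10 members were at least 2-fold lower in KO, beside 22.9% of all genes, and 0 of 10 at least 2-fold higher, beside 24.9%. Ppargc1a (-1.02) and Sirt1 (0.93) lay near these limits and crossed them in some alternative settings. By Br, 0 of 10 were at least 2-fold away in either direction, beside 14.1% of all genes. The EU ratios of all genes spread widely, with quartiles of -0.90 and 0.99, against -0.39 and 0.41 for Br. The median member lay at -0.59 by EU and -0.45 by Br. Estimates were below 0 in mRNA, EU and Br together for 6 of the 10 members and for 16.6% of all genes. Prkab1 is 1 of these 6, with an mRNA estimate of only -0.0007.

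The EU counts of Prkag1 were 0 reads in KO and 163 in WT. With the KO count set at a floor of 3 reads, that is at least 27.7-fold lower in KO after centring, a bound that leaves out the counting error of the WT reads. With that error, the 95% counting interval ended at a log2 of -4.48. Prkag1 was present in the other KO libraries, with 15 Br reads in KO and 29 in WT (log2 -0.48, 95% interval -1.51 to 0.44), and a count of 0 was shared by 47 of the 8886 genes with at least 100 WT EU reads, against 1 of 6572 by Br. Among the other members 2-fold lower by EU, Stk11 had 67 reads in KO and 559 in WT (log2 -2.08, interval -2.48 to -1.72), and by Br 195 in KO and 380 in WT (-0.51, interval -0.77 to -0.26). The kinase gene was therefore below the median gene by both methods, by unequal amounts. Camkk2 had 6 EU reads in KO and 92 in WT (-2.86, interval -4.45 to -1.79), and 18 Br reads in KO and 33 in WT (-0.41, interval -1.34 to 0.44). Ppargc1a had 249 EU reads in KO and 993 in WT (-1.02, interval -1.23 to -0.82), while by Br it had 109 in KO and 123 in WT (0.27, interval -0.11 to 0.66).

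The catalytic genes lay on opposite sides of the median gene in nascent RNA. Prkaa2 had 2277 EU reads in KO and 7292 in WT (log2 -0.71, interval -0.78 to -0.64), and 100 Br reads in KO and 180 in WT (-0.40, interval -0.77 to -0.04). Prkaa1 had 466 EU reads in KO and 808 in WT (0.18, interval 0.0092 to 0.34), and 76 Br reads in KO and 61 in WT (0.76, interval 0.26 to 1.27). The EU value of Prkaa1 was 0 when centred on genes of like GC content, a setting added after the data were seen. Sirt1 differed between the methods, with 723 EU reads in KO and 746 in WT (0.93, interval 0.78 to 1.08), and 171 Br reads in KO and 247 in WT (-0.08, interval -0.37 to 0.20). Prkag2 was below the median gene by both methods, at -0.47 by EU (305 reads in KO, 826 in WT) and -0.88 by Br (131 in KO, 330 in WT). The scaffold genes lay nearer to it by EU, where Prkab1 had 211 reads in KO and 452 in WT (-0.13) and Prkab2 had 56 in KO and 91 in WT (0.28). By Br, Prkab1 had 82 reads in KO and 157 in WT (-0.49), and Prkab2 21 in KO and 52 in WT (-0.84).

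**Figure D3:**
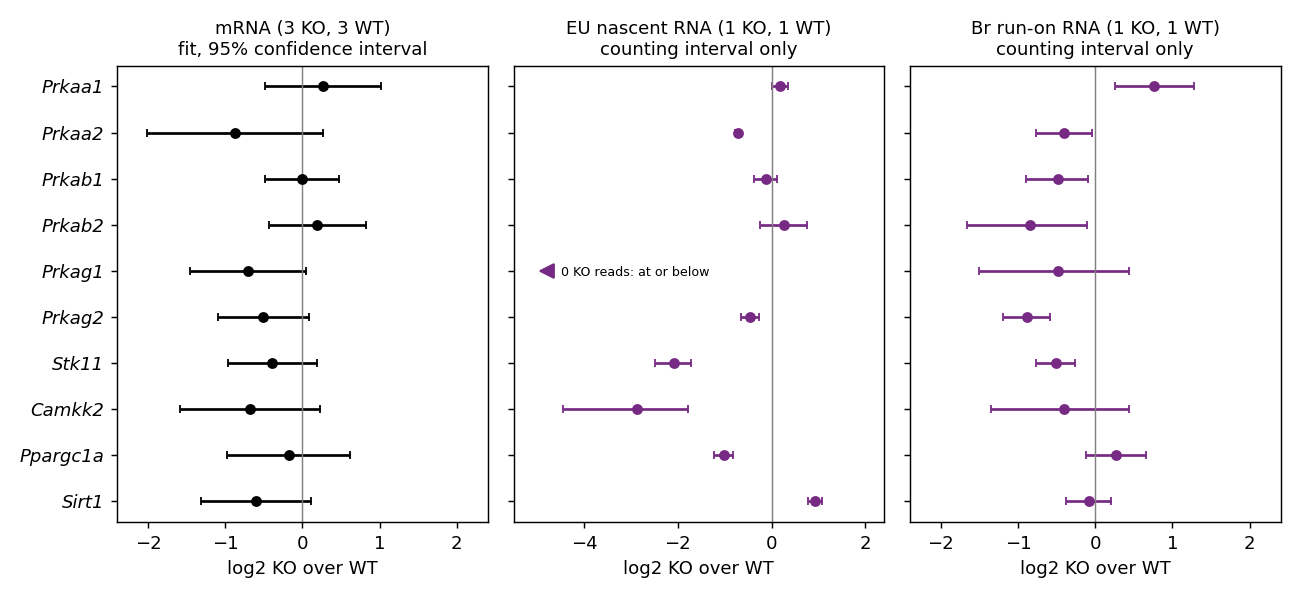
Log2 KO over WT of the 10 genes in mRNA (with 95% limma interval, n = 3 each) and in EU and Br nascent RNA (1 library each, 95% counting interval, centred on the median gene). Prkaa2 lies below 0 and Prkaa1 above 0 in all of them, and the EU value of Prkag1 is a bound from 0 KO reads.

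Around the 10 genes, the other genes of the pathway were taken from 5 lists of textbook members, drawn up with earlier results of these data known. In the list of genes upstream of AMPK, 0 of 17 rose and 1 fell, beside 1.36% of all genes that limma called lower, and the median log2 was -0.32. Fnip2, a partner of folliculin that binds AMPK, had 324, 490 and 504 scaled reads in KO, against 1172, 1239 and 1122 in WT (2.73-fold lower in KO, limma adjusted p = 0.0182). KO and WT libraries did not overlap. The call was lost without WT replicate 1 (0.0574), WT replicate 2 (0.0936) or KO replicate 2 (0.0841).

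Among AMPK substrates, 0 of 17 rose and 2 fell, beside the same 1.36% of all genes, and the median was -0.53. Both that fell are genes of fatty acid synthesis. Srebf1, the gene of SREBP-1, an activator of fatty acid synthesis genes, had 1828, 1958 and 2441 scaled reads in KO, against 7248, 6045 and 6732 in WT (3.23-fold lower in KO, limma adjusted p = 0.00938). Acaca, the gene of acetyl-CoA carboxylase 1, had 857, 967 and 927 in KO, against 2055, 2959 and 3206 in WT (2.94-fold lower, adjusted p = 0.0133). KO and WT libraries did not overlap for 12 of the 17 substrates, beside 26.0% of all genes. An unadjusted limma p under 0.05 was found for 10, beside 20.0% of all genes. Because the list was drawn up with earlier results of these data known, these counts are descriptions only. Both calls were lost without WT replicate 2 (adjusted p = 0.0516 for Srebf1 and 0.0774 for Acaca) or KO replicate 2 (0.0642 for Srebf1 and 0.0822 for Acaca), and that of Acaca also without KO replicate 1 (0.0601). By EU and Br the log2 ratios were -3.65 and -0.46 for Srebf1, and -2.32 and -0.28 for Acaca, while the median of the 17 substrates was 0.08 by EU and -0.46 by Br.

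The remaining lists held no gene called by limma over all 6 libraries. Of the 12 AMPK-related kinases that LKB1 also phosphorylates, 0 rose and 0 fell (median -0.01). The largest estimates were those of Mark1, with 39, 45 and 30 scaled reads in KO, against 12, 27 and 16 in WT (log2 1.07, limma adjusted p = 0.224), and of Brsk1, with 19, 14 and 5 in KO, against 7, 14 and 2 in WT (0.77, adjusted p = 0.668, and 0.15 without WT replicate 3). Of the 18 genes of the PGC-1 family, its partners and targets, 0 rose and 0 fell (median -0.09). Pck1, the gluconeogenic gene of cytosolic PEPCK, had 85344, 80752 and 120443 in KO, against 31824, 72619 and 48535 in WT (0.96, adjusted p = 0.163). Ppargc1b, the PGC-1beta gene, had 195, 152 and 274 in KO, against 381, 438 and 254 in WT (-0.79, adjusted p = 0.192), and -1.02 with an adjusted p of 0.0499 without WT replicate 3. Of 19 tested genes of the other sirtuins and NAD metabolism, 0 rose and 0 fell (median -0.18). Nampt, the gene of the rate-limiting enzyme of NAD salvage, had 295, 604 and 559 in KO, against 988, 1310 and 2612 in WT (-1.69, adjusted p = 0.0668). The groups did not overlap, and the adjusted p ranged from 0.0009 with DESeq2 to 0.190 without KO replicate 2. In limma it was 0.0396 without WT replicate 3 and 0.0411 with no filter on low values. Nnmt, which methylates nicotinamide, had 247, 220 and 3910 in KO, against 101, 335 and 122 in WT (1.89, adjusted p = 0.359), with KO replicate 3 far above every other library. Without that library the estimate was 0.54.

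**Figure D4:**
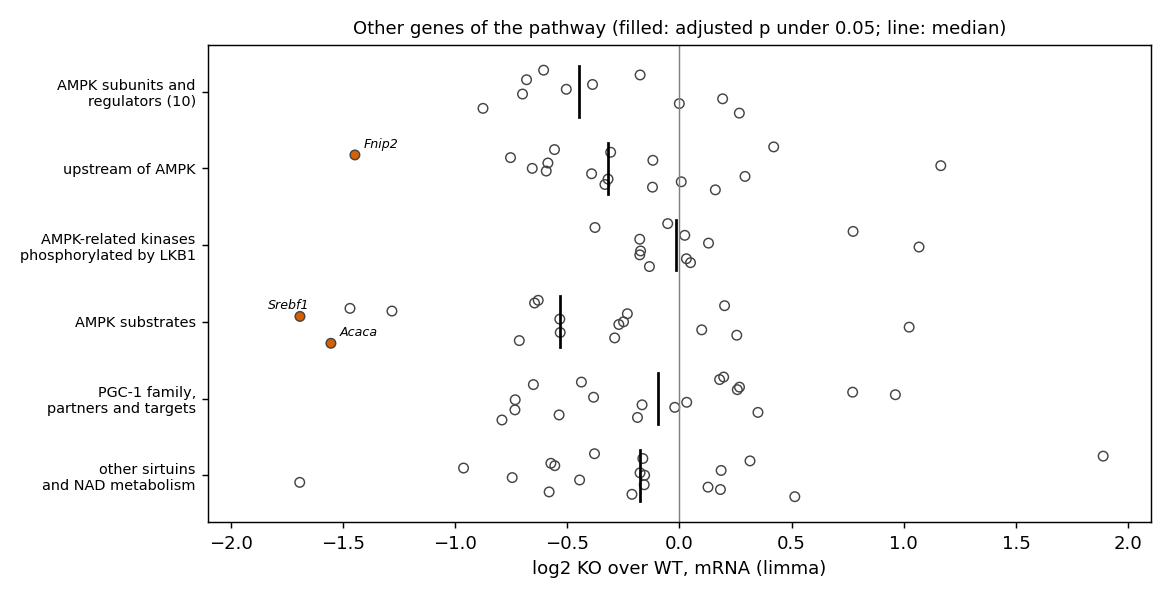
Log2 KO over WT in mRNA (limma, n = 3 each) for the 10 genes and the 5 pathway lists, with each point a gene, filled where the adjusted p was under 0.05, and lines for medians. The 3 called genes, all lower in KO, are in the upstream and substrate lists.

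Markers of some other liver cells, and of cycling cells of whatever type, moved with genotype in the same mRNA libraries. Beside the 1.35% of all genes that limma called higher in KO, 2 of 10 macrophage markers rose, Csf1r (3.14-fold, limma adjusted p = 0.0381) and Cd14 (3.69-fold, adjusted p = 0.0448), and all 10 had higher means in KO. Stellate cell and fibroblast markers summed to 6518 to 8299 in KO and 3505 to 4930 in WT, with 2 of 10 called, Pdgfrb and Postn. Of these 10 markers, 9 had estimates above 0 and 1 below. Cycling cell markers, which do not tell hepatocytes from other cells, summed to 431 to 1709 in KO and 128 to 218 in WT, with Cdk1 and Aurka called among 5. Of 6 bile duct markers Spp1 was called, and the other 5 summed to 366, 251 and 241 in KO, against 392, 261 and 236 in WT. Each of these 7 calls was lost without WT replicate 1, WT replicate 2, KO replicate 1 or KO replicate 2, and those of Cd14, Pdgfrb and Postn also without KO replicate 3, with adjusted p-values of 0.0528 to 0.228. None of 8 endothelial, 6 lymphocyte and 6 hepatocyte markers passed the test. Hepatocyte markers summed to 1719714 to 1942227 in KO and 1719812 to 2670344 in WT, and no listed marker was at 0 in all libraries. The part of these cells in any value above was not tested.

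For Prkag1, the member with the smallest limma p, the genes with the most similar pattern over the 6 mRNA libraries were Gm15375, Usp4 and Vamp2, with Pearson r of 0.995, 0.993 and 0.992. Gm15375 had only 11, 4 and 3 scaled reads in KO, against 10, 10 and 19 in WT, so its r rests on few reads. Usp4, a deubiquitinase gene, had 2265, 1696 and 1635 scaled reads in KO, against 2139, 2035 and 2573 in WT. Vamp2, a vesicle fusion gene, had 793, 616 and 549 in KO, against 722, 761 and 945 in WT. In each of them, as in Prkag1, WT replicate 3 was highest and KO replicate 3 lowest. These r values were the highest among all genes tested, share the same 6 libraries and are descriptions only.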

How the data were processed

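Mouse liver mRNA was compared between 3 KO and 3 WT libraries, and EU and Br nascent RNA between 1 KO and 1 WT library each. The submitters' processing notes name TopHat2, Bowtie2, Cufflinks, DESeq and the build mm9, with no role given for any. The deposited mRNA values are a score: whole numbers per gene that the authors scaled with DESeq and rounded, per the file headers and values, so a count test could not be the main one. The deposited nascent values are read counts per gene, and the Br counts, all even, were divided by 2. RPKM values deposited by the authors, with 0.5 RPKM added before the ratio, served only as an alternative.

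Scaled values of at least 10 in at least 3 libraries were tested with limma 3.58.1 (R 4.3.3) on log2(value + 1), with a mean-variance trend and Benjamini-Hochberg adjustment over 16813 genes at 0.05. Fold changes are on that scale, which understates low genes. The fit was tested on simulated data. Reads re-estimated from the rounding steps went to edgeR 4.0.16 and DESeq2 1.42.0 as alternatives. They are approximate in every library. In WT replicate 2 and KO replicates 1 and 2 the step was below 1, so different read numbers can give the same value. In the others the step returned 96.86% to 97.5% of values. Nascent ratios used reads + 0.5, were centred on genes with at least 20 reads, and carry exact Clopper-Pearson 95% intervals, which cover counting error only.

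Named genes were Setd8, all members, up to 4 called genes per direction in each pathway list (the 2 largest changes where none was called), called markers, and the 3 genes most like the member with the smallest p. Members and lists were chosen with earlier results of these data known, and some pathway genes are not reported here. All 6 per-sample mRNA files were identical to their column of the joint table. Gene coordinates are from GENCODE on GRCm38, not from the files.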

Additional observations from a re-analysis of the deposited data

How the results depend on the processing

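Members' mRNA results kept their side of the threshold in 140 of 140 alternative values, while Prkab1 and Ppargc1a took either sign. The number of genes called by limma, 227 higher and 228 lower in KO, was 867 and 907 with DESeq2, and 500 and 514 with the replicate block. Leaving out 1 library gave 13 to 785 higher and 15 to 821 lower, the fewest without KO replicate 2 and the most without WT replicate 3. DESeq2 called 454 of the 455 genes and 1774 in all. Same-numbered KO and WT libraries correlated at 0.409, -0.242 and 0.198 in their deviations, and not every library correlated best with its own number. With 3 libraries per group, these values cannot decide whether the numbers pair the libraries. No member was called under the block, and Nampt was (adjusted p = 0.0108). The EU values that moved were those of Prkaa1 (0 centred within 10 bins of GC content), Prkaa2 (-0.62 from RPKM, -0.89 within GC bins), Prkag1 (-2.81 from RPKM, -4.14 with 5 reads added) and Camkk2 (-1.03 from RPKM). The GC setting was chosen after the data were seen. Added reads act most where counts are 0, and the 0.5 added to RPKM rather than to reads shrinks ratios of low RPKM values. Beyond that, the cause was not tested. The other 44 EU and all 50 Br values moved by less than their interval. Among them, Ppargc1a by EU was -0.92 from RPKM and -0.99 with the median over genes with at least 100 reads. Both are short of 2-fold lower. Sirt1 by EU was 1.01 from RPKM, past 2-fold higher. For Setd8 and the other named genes, 229 alternative values kept their side, 39 lost the call and 6 gained it. With 1 library per genotype, nascent depth limits Camkk2, Prkab2 and Prkag1 most.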
